A study of Homo sapiens with 6 samples.

Results

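ABHD6 and 8 other lipid hydrolases and endocannabinoid enzymes were followed in HepG2, a human hepatocellular carcinoma cell line, after a short exposure to TGFβ. The set holds ABHD6, ABHD12, MGLL, DAGLA, DAGLB, FAAH, NAPEPLD, LIPE and PNPLA2, found by gene name among the 57773 genes of the deposited table, and all 9 were present. ABHD6 was selected on its difference between TGFβ and vehicle in these same cultures, so its values for that difference are a description and carry no test. The other 8 were listed with it for their function. The TGFβ group was 3 cultures that received human recombinant TGFβ1 at 5 ng/mL for 3 h, and the vehicle group was 3 cultures that received vehicle for the same time. Cells of both groups grew as monolayers in MEM with 10% serum at a passage under 20, and the methods of the study describe washing and a change to serum-free MEM before TGFβ or vehicle was added. Libraries were made from mRNA, and cultures with number 1 shared lane 1 and those with number 2 shared lane 3, while those with number 3 lay on lanes 4 and 5. HepG2 is a single tumor line, and a difference in RNA from a whole culture cannot be told apart as more cells of a type or more RNA per cell. The methods of the study call the samples of a group biological replicates and the labels do not say how they were grown, so a p-value here measures the spread between these samples.

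Endocannabinoids are lipid messengers made on demand from membrane lipids. Diacylglycerol lipases, DAGLA and DAGLB, cut diacylglycerol to 2-arachidonoylglycerol, a monoacylglycerol that activates cannabinoid receptors, and the serine hydrolases MGLL, ABHD6 and ABHD12 cut it further to arachidonic acid and glycerol. NAPEPLD releases anandamide and related amides from membrane phospholipids, and FAAH breaks them down. PNPLA2, also called ATGL, takes the first fatty acid from stored triacylglycerol, LIPE, also called hormone-sensitive lipase, takes the next from diacylglycerol, and monoacylglycerol lipases take the last. In the liver these enzymes connect lipid storage, lipid signaling and the supply of fatty acids.

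The reads counted on genes numbered 60815385 in the shallowest culture and 100099136 in the deepest. Libraries of a group differed by more than counting noise, and no library stood apart by its share of reads on its 10 most read genes, which was 7.32% to 7.97%. The treatment labels were checked on the TGFβ targets SMAD7, SKIL and PMEPA1, which were all higher, by 1.72 to 4.30 on the log2 scale. The 8 hepatocyte markers, among them ALB and APOA1, summed to an RPKM (reads per length of the gene model and per depth of the library) of 6810 to 7526 in vehicle cultures and 6285 to 7421 in TGFβ cultures. ALB gave the largest part of this sum, with a mean of 3926 in vehicle cultures. Of the 8, 0 were called by edgeR and 0 had an unadjusted p under 0.05, and with the replicate number as a block FGB (-0.22, FDR 0.0331) and TTR (-0.25, FDR 0.0495) were lower. The 4 adipocyte markers ADIPOQ, LEP, PLIN1 and CIDEA summed to at most 0.578, with CIDEA at 0 reads, and the endothelial markers VWF and CDH5 to at most 0.0286. PECAM1 was not found in the table under that name. The blood cell markers summed to 13.5 to 14.2 with vehicle and 13.6 to 14.5 with TGFβ, nearly all of it from CD68, with CD3E at 0 reads.

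ABHD6 (ENSG00000163686), a membrane-bound monoacylglycerol hydrolase of the alpha/beta hydrolase fold, lies at chr3:58223233-58281420 on the forward strand of hg19, and a GENCODE annotation of the same build gives it 7 transcripts, the canonical one with 10 exons. It was higher with TGFβ in every culture. Its reads numbered 1024, 826 and 619 with vehicle, against 2876, 2442 and 2124 with TGFβ. Scaled to library size as CPM (the read count as a share of the library, scaled by TMM factors), these were 11.6, 9.97 and 10.1 with vehicle and 29.7, 30.3 and 29.1 with TGFβ. The lowest TGFβ culture was thus well above the highest vehicle culture, and the cultures of each group lay close together. The mean was 10.5 CPM ± 0.919 (SD, n = 3) with vehicle and 29.7 ± 0.606 (SD, n = 3) with TGFβ. The fitted difference was 1.49 on the log2 scale (SE 0.09), a fold of 2.82. Within numbers the fold was 2.56 for the pair on lane 1, 3.05 for the pair on lane 3 and 2.90 for the pair on separate lanes. By size it was the 123rd of the 707 rises called at a false discovery rate (FDR) under 0.05.

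**Figure D1:**
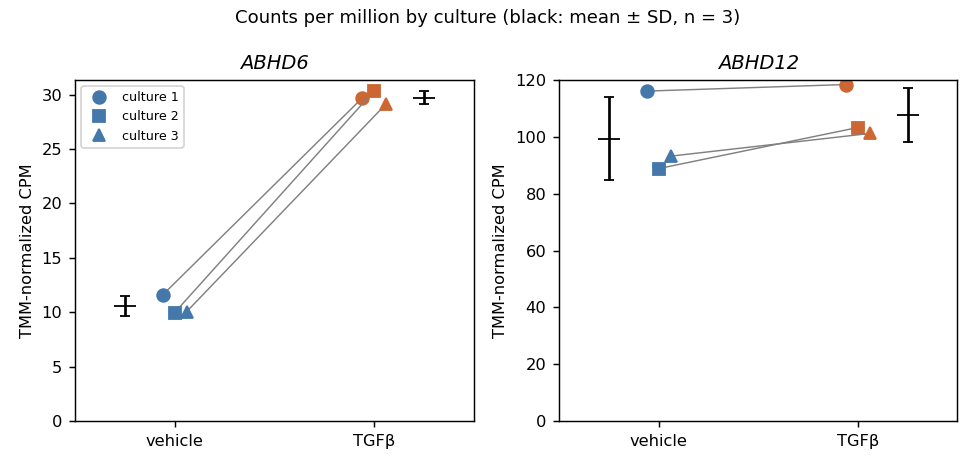
CPM of ABHD6 and of ABHD12 in each culture (vertical axes, linear from 0, a separate scale for each gene), with vehicle at left and TGFβ at right. Lines join cultures with the same number and bars at the sides give the mean ± SD of 3 cultures; ABHD6 sat between 9.97 and 11.6 with vehicle and between 29.1 and 30.3 with TGFβ, while the ABHD12 groups overlapped.

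ABHD12, the other alpha/beta hydrolase of the trio and also known as a lysophosphatidylserine lipase, was the most abundant enzyme of the set and did not pass the test. Its values were 116.2, 88.9 and 93.3 CPM in vehicle cultures and 118.5, 103.4 and 101.3 CPM in TGFβ cultures. The groups overlapped, since vehicle culture 1 was above TGFβ cultures 2 and 3. The difference was 0.12 on the log2 scale (SE 0.11), with a 95% interval from -0.13 to 0.36 and an FDR of 0.768 by edgeR's quasi-likelihood test. ABHD12 (ENSG00000100997, chr20:25275379-25371619, reverse strand) shares 3272 bases with PYGB, a glycogen phosphorylase gene on the opposite strand, whose difference was 0.03 (FDR 0.927), and holds PPIAP2, a gene with at most 5 reads. Whether counting used strand is not given in the sources used here, so reads in shared stretches cannot be assigned.

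MGLL, the best known monoacylglycerol lipase of brain and adipose tissue, was close to silent in HepG2. Only 19, 12 and 13 of its reads were counted with vehicle, and 12, 14 and 8 with TGFβ. These ranges overlapped, and the difference of -0.48 on the log2 scale (SE 0.36) had a 95% interval from -1.29 to 0.34 and an FDR of 0.694. With 44 reads in one group and 34 in the other, a change within that interval was not detectable at this depth. The table places MGLL (ENSG00000074416) at chr3:127407909-127542051 on the reverse strand, while the GENCODE annotation extends it to base 127771033.

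Within the 3 monoacylglycerol hydrolases of the set, the make-up of the RNA differed between groups. ABHD6 held 8.70%, 9.67% and 9.33% of their summed RPKM in the vehicle cultures and 19.3%, 21.9% and 21.6% in the TGFβ cultures. ABHD12 went from 90.7% ± 0.489 to 79.1% ± 1.41 (SD, n = 3 each), and MGLL held 0.0592% and 0.0342%. ABHD12 thus remained the main transcript of the trio in all 6 cultures. The ratio of ABHD12 to ABHD6 RPKM was 9.84 ± 0.584 with vehicle and 3.79 ± 0.336 with TGFβ. The summed RPKM was 26.4 ± 3.4 and 32.0 ± 2.81. These shares rest on the ABHD6 difference that selected the gene and were not tested.

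**Figure D2:**
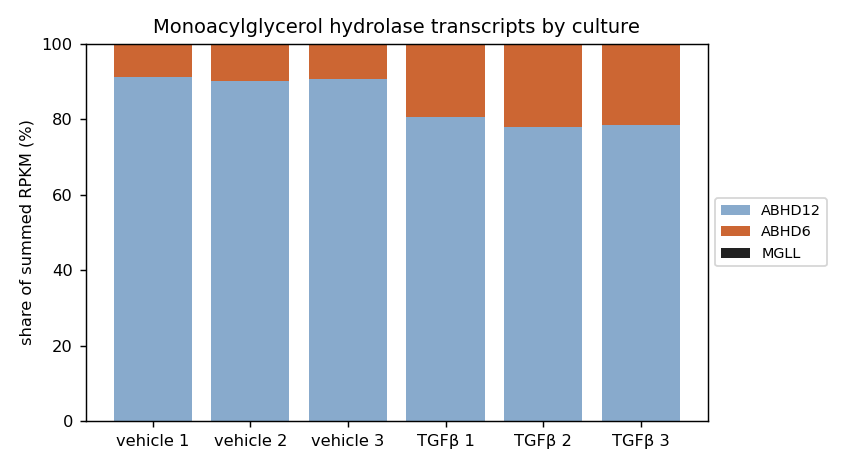
Share of the summed RPKM of ABHD6, ABHD12 and MGLL (percent, from 0 to 100) in each of the 6 cultures, stacked by gene. ABHD6 took 8.70% to 9.67% with vehicle and 19.3% to 21.9% with TGFβ, and MGLL is too small to be seen.

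The enzymes that make 2-arachidonoylglycerol did not pass the test. DAGLA, the main form in the nervous system, had 16.6, 19.2 and 17.1 CPM with vehicle and 14.9, 17.7 and 14.6 CPM with TGFβ, which overlap. Its difference was -0.16 on the log2 scale (SE 0.11, 95% interval -0.40 to 0.08, FDR 0.617). DAGLB, the form known from liver and macrophages, had 38.2, 39.3 and 32.3 CPM with vehicle and 37.4, 37.3 and 33.2 CPM with TGFβ. Culture 3 was the lowest of both groups, and the difference was -0.03 (SE 0.09, 95% interval -0.24 to 0.19, FDR 0.949). Per length, DAGLB was above DAGLA in every culture, with a ratio of RPKM of 2.08 ± 0.212 (SD, n = 3) with vehicle and 2.30 ± 0.198 (SD, n = 3) with TGFβ. DAGLB (ENSG00000164535, chr7:6448757-6523821, reverse strand) shares 38238 bases with KDELR2, an ER retention receptor gene on the same strand, and 900 bases with FLJ20306. KDELR2 had an RPKM of 64.2 ± 10.1 with vehicle against 5.27 ± 0.627 for DAGLB, and its difference was 0.13 (FDR 0.755). The FLJ20306 difference was -0.02 (FDR 0.965). How reads on overlapping genes were counted is not given, so reads in these shared stretches cannot be assigned. The DAGLB level, its rank and its ratios to DAGLA and ABHD6 carry that limit. DAGLA (ENSG00000134780, chr11:61447905-61514473, forward strand) shares 509 bases with RP11-467L20.10 on the opposite strand, whose difference was -0.14 (FDR 0.857).

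The anandamide pair also did not pass the test. NAPEPLD, which makes anandamide, had 9.89, 11.8 and 8.88 CPM with vehicle and 10.7, 10.6 and 9.04 CPM with TGFβ. Its difference was -0.01 on the log2 scale (SE 0.13, 95% interval -0.31 to 0.28, FDR 0.981). FAAH, which hydrolyses anandamide, had 7.87, 5.44 and 5.59 CPM with vehicle and 6.43, 6.33 and 5.21 CPM with TGFβ. Vehicle culture 1 was the highest of the 6 for FAAH, and the difference was -0.07 (SE 0.17, 95% interval -0.46 to 0.31, FDR 0.914). NAPEPLD (ENSG00000161048) lies at chr7:102740223-102790007 on the reverse strand and holds the pseudogene RPL19P12, whose difference was 0.07 (FDR 0.931). FAAH (ENSG00000117480) lies at chr1:46859937-46879520 on the forward strand and overlaps no other gene of the table.

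Of the lipases of stored fat, PNPLA2 was abundant and LIPE was nearly absent. PNPLA2 had 67.0, 61.9 and 56.4 CPM with vehicle and 74.2, 72.9 and 57.0 CPM with TGFβ. TGFβ cultures 1 and 2 were above every vehicle culture and TGFβ culture 3 was not. The difference was 0.14 on the log2 scale (SE 0.11, 95% interval -0.11 to 0.39, FDR 0.707). For LIPE, vehicle culture 1 had 3 reads, TGFβ culture 1 had 1 and the other 4 cultures had 0, and it was left out of the test as too low. A count of 0 allows up to 0.0487 CPM in the shallowest culture, counting error only, and no fold is given. LIPE (ENSG00000079435, chr19:42905659-42931578, reverse strand) lies wholly inside LIPE-AS1 on the opposite strand, which had 339 to 570 reads per culture and a difference of -0.29 (FDR 0.42), and it also holds CTB-50E14.4, with at most 1 read. PNPLA2 (ENSG00000177666, chr11:818902-825573, forward strand) shares 1940 bases with AP006621.8 on the opposite strand, whose difference was 0.17 (FDR 0.691).

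The 250 bases upstream of the outermost 5′ end of LIPE are shown because they hold the letters of a SMAD-binding element in a member with almost no reads. They were read from GRCh37 at chr19:42931579-42931828 on the reverse strand, 5′ to 3′ toward the gene. Capitals mark the SMAD-binding letters CAGAC, searched together with GTCTG so that both strands are covered.
LIPE: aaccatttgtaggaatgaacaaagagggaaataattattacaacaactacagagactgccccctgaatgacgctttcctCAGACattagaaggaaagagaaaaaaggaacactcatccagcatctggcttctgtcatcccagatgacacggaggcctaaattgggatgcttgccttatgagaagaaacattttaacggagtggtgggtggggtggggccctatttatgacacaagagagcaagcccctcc

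The first base of the match lay at position -171, counted back from the 5′ end. These letters stood in the same window of 37.7% of 21870 tested genes. The MGLL window also held them, at -21, and those of ABHD12, DAGLB, FAAH, NAPEPLD and PNPLA2 did not. The MGLL window lies beyond the GENCODE end of the gene, base 127771033, and not at the end of the counted gene model, base 127542051. It overlaps an annotated exon, as the ABHD12 window does. The DAGLB window begins beyond base 6523821, where GENCODE ends both DAGLB and KDELR2. That window lies inside the counted interval of FLJ20306, so it is not a window of DAGLB alone. A match is a run of letters and not a shown site of binding, and LIPE was not searched at other start sites.

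**Figure D3:**
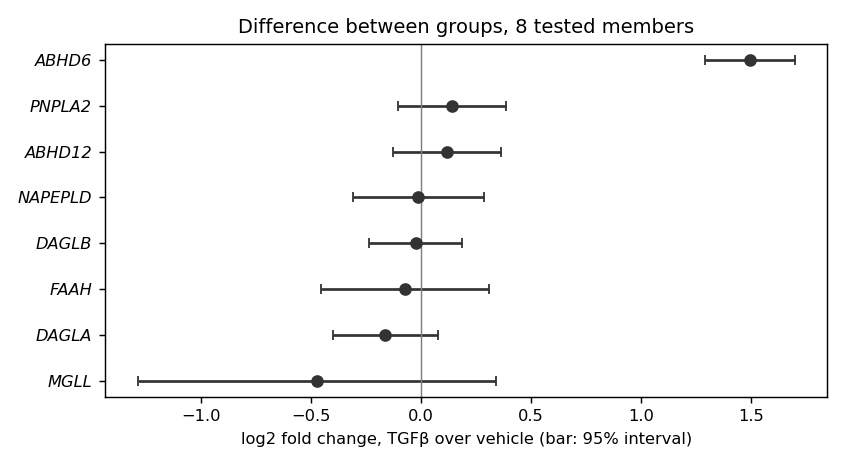
Difference between TGFβ and vehicle (log2 scale) with its 95% interval for the 8 enzymes with enough reads to be tested. Intervals come from the fit without the block on the replicate number. ABHD6, selected on this difference, lies at 1.49, and the intervals of the other 7 include 0.

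In all, 8 of the 9 enzymes had enough reads to be tested, 1 was called higher and 0 lower at an FDR under 0.05. Over all 22747 tested genes 3.11% were called higher and 1.01% lower, and since ABHD6 was chosen on this contrast nothing is read from its count. Besides ABHD6, 0 members had an unadjusted p under 0.05 by edgeR without the block on the replicate number, against 13.7% of all genes. That fit leaves out the pairing of cultures by number. Unadjusted p-values with the block are not given, so this comparison holds for the unpaired fit only. DESeq2 or limma-voom, also without the block, called 0 of the members besides ABHD6, though DESeq2 gave MGLL no FDR. With the block the SE went from 0.11 to 0.053 for ABHD12, 0.057 for PNPLA2 and 0.07 for DAGLA. Their blocked differences were 0.121, 0.134 and -0.165, at FDRs of 0.195, 0.179 and 0.176, so they were not called with the block either. In ABHD6 alone did every TGFβ culture lie above every vehicle culture, which 10.4% of tested genes did. In 0 members did every TGFβ culture lie below, which 8.23% did. The upper ends of the intervals of the other 7 enzymes reached at most 0.39, so a rise of the size seen for ABHD6 lay outside each of them.

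The order of levels per length changed at ABHD6. In vehicle cultures ABHD12 led with a mean RPKM of 24.0 ± 3.21, followed by PNPLA2 with 13.3 ± 1.18, DAGLB with 5.27 ± 0.627, DAGLA with 2.54 ± 0.264, ABHD6 with 2.43 ± 0.187, FAAH with 1.87 ± 0.383 and NAPEPLD with 1.12 ± 0.191 (SD, n = 3 each). MGLL at 0.0156 and LIPE at 0.00178 came last. ABHD6 overlapped both of its neighbours in this order, DAGLA and FAAH, over the cultures. In TGFβ cultures ABHD6 stood at 6.67 ± 0.365, above DAGLB at 5.04 ± 0.494 and below PNPLA2 at 14.3 ± 2.43, without overlap with either. The RPKM of ABHD12 was 25.3 ± 2.61, that of DAGLA 2.21 ± 0.304, that of FAAH 1.74 ± 0.249, that of NAPEPLD 1.08 ± 0.133, that of MGLL 0.0109 and that of LIPE 0.000537. DAGLB was 2.17 ± 0.249 times ABHD6 with vehicle and 0.754 ± 0.0386 times with TGFβ, and PNPLA2 was 5.48 ± 0.288 and 2.13 ± 0.27 times ABHD6.

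**Figure D4:**
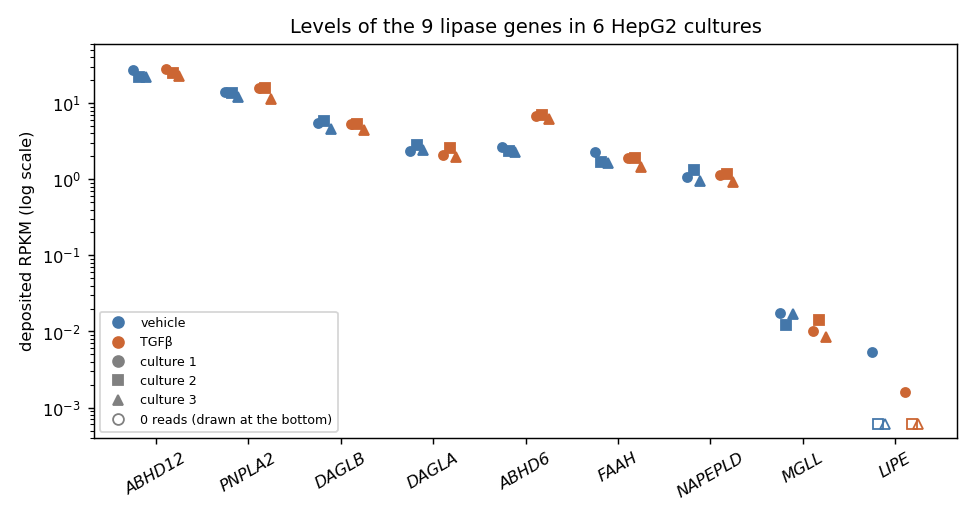
RPKM of the 9 enzymes in each culture (log axis), vehicle and TGFβ side by side, 3 cultures each, with open symbols at the bottom for cultures with 0 reads. ABHD12 and PNPLA2 lie highest and MGLL and LIPE far below the rest, and ABHD6 is the 5th of 9 with vehicle and the 3rd with TGFβ.

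Other genes of the pathways were read from 5 lists, beside the 3.11% of all tested genes that were called higher and the 1.01% called lower. The lists were chosen with earlier results of these data known. Cultures with the same number deviated together, so counts with the number as a block are given too, under which 8.08% of all genes were called higher and 3.75% lower. An unadjusted p under 0.05 was reached by 13.7% of all tested genes, and DESeq2 called 1012 of 22747 higher and 408 lower. The median difference over all tested genes was -0.005 on the log2 scale.

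Of 27 endocannabinoid partners, which hold other hydrolases, carriers and receptors, 20 were tested and 0 were called in either direction by edgeR, with 4 at an unadjusted p under 0.05 and 1 higher by DESeq2. The median was 0.01. With the block 3 were higher, namely ABHD4, which acts on N-acyl phospholipids, by 0.30 (FDR 0.00452), the channel TRPV1 by 0.35 (FDR 0.0163), and the nuclear receptor PPARG by 0.55 (FDR 0.00263). With the block 2 were lower, namely PPARA, a nuclear receptor of fatty acids, at -0.29 (FDR 0.00747) and the fatty acid carrier FABP1 at -0.47 (FDR 0.0234). The genes called only with the block were singled out after their values were seen. The cannabinoid receptor CNR1, the cyclooxygenase PTGS2 and the carrier FABP7 had 0 reads in every culture. CES1, a liver carboxylesterase that also hydrolyses 2-arachidonoylglycerol, had 132.2 CPM ± 5.13 with vehicle and 135.0 ± 9.08 with TGFβ (SD, n = 3 each), with a difference of 0.03 (FDR 0.922).

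Of 24 genes of lipid droplet lipolysis, among them perilipins and lipase cofactors, 20 were tested and 0 were called in either direction by edgeR, with 2 at an unadjusted p under 0.05, and the median was -0.01. With the block 2 were lower, glycerol kinase GK at -0.38 (FDR 0.0012) and the endothelial lipase LIPG at -0.67 (FDR 0.025). CIDEA and LPL had 0 reads in every culture.

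Of 17 genes of glycerolipid synthesis, 16 were tested, 1 was called higher and 1 lower, and the median was 0.01. AGPAT3, an acyltransferase of phosphatidic acid synthesis, had 143.5, 120.2 and 124.5 CPM with vehicle and 207.8, 173.2 and 172.4 CPM with TGFβ. These groups did not overlap, and AGPAT3 rose by 0.51 on the log2 scale (SE 0.10, FDR 0.0177). LPIN1, a phosphatidate phosphatase that makes diacylglycerol, had 14.0, 16.0 and 16.0 CPM with vehicle and 11.7, 10.5 and 11.6 CPM with TGFβ. Its groups did not overlap either, with a difference of -0.44 (SE 0.10, FDR 0.0412). The call of AGPAT3 was lost without vehicle replicate 2 (FDR 0.0893), vehicle replicate 3 (FDR 0.103) or TGFβ replicate 1 (FDR 0.0543), with differences of 0.46, 0.48 and 0.41. That of LPIN1 was lost without vehicle replicate 2 (FDR 0.161), vehicle replicate 3 (FDR 0.194), TGFβ replicate 1 (FDR 0.0917), 2 (FDR 0.153) or 3 (FDR 0.055), with differences between -0.47 and -0.41. Each of these fits held 5 cultures in place of 6. With the block 5 were higher and 3 lower. The added genes were AGPAT2 at 0.73, MOGAT3 at 0.34, AGPAT9 (now GPAT3) at 0.30 and GPAM at 0.20, all acyltransferases, and on the lower side the phosphatase LPIN2 at -0.24 and the acyltransferase AGPAT5 at -0.20.

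Of 21 phospholipase C and diacylglycerol kinase genes, which make and consume the diacylglycerol that DAGLA and DAGLB cut, 17 were tested and 0 were called in either direction by edgeR. At an unadjusted p under 0.05 there were 4, DESeq2 called 1 lower, and the median was 0.09. With the block PLCD3 was higher by 0.30 and PLCG1 by 0.19, both phospholipases, and the kinase DGKE was lower, at -0.55. Of 19 other ABHD genes, all were tested and 1 was called higher, with a median of 0.05. This was ABHD2, another serine hydrolase of monoacylglycerol, with 76.3, 68.6 and 71.1 CPM with vehicle and 93.3, 99.2 and 91.9 CPM with TGFβ. ABHD2 rose by 0.40 on the log2 scale (SE 0.07, FDR 0.0131), and its groups did not overlap. Its call was lost without vehicle replicate 2 (FDR 0.0827), vehicle replicate 3 (FDR 0.08) or TGFβ replicate 2 (FDR 0.073), with differences of 0.36, 0.39 and 0.35. With the block ABHD4, which is also in the first list, and ABHD8 at 0.39 were added.

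**Figure D5:**
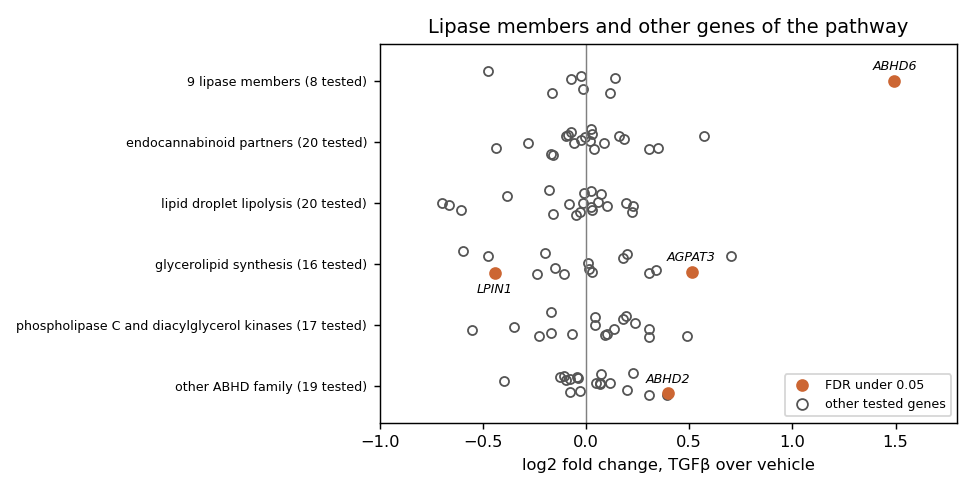
Difference between TGFβ and vehicle (log2 scale) of every tested gene of the set (top row) and of the 5 pathway lists, with 1 point per gene. Filled points had an FDR under 0.05 without the block: ABHD6, selected on this difference, and AGPAT3, LPIN1 and ABHD2, which lie between -0.44 and 0.51.

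Of the markers of stellate cells and fibroblasts, PDGFRB and COL1A1 gave nearly all of the signal. The summed RPKM was 1.32 to 1.57 with vehicle and 2.21 to 3.69 with TGFβ, from 4 markers of which 2 were tested and 0 were called. PDGFRB was higher by 1.22 (FDR 0.0582) and COL1A1 by 0.57 (FDR 0.193), and both were called with the block, while COL1A2 and DCN were too low to be tested. The part of these 2 genes in the ABHD6 difference was not tested.

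Along the chromosome, ABHD6 overlaps no other gene of the table. The table lists 16 genes within 300 kb of it, of which 10 were tested and 0 were called in either direction by edgeR. Over all tested genes 3.11% were called higher and 1.01% lower. An unadjusted p under 0.05 was reached by 5 of the 10, against 13.7% of all tested genes. With the block 4 were higher and 2 lower, against 8.08% and 3.75% of all tested genes. These genes were not tested as a set. DNASE1L3, a secreted nuclease gene 22809 bases to the left, had 0.555, 0.278 and 0.438 CPM with vehicle and 1.09, 0.858 and 0.658 CPM with TGFβ, without overlap. Its difference was 1.04 on the log2 scale (SE 0.31, FDR 0.117, and 0.0176 with the block). RPP14, 10554 bases to the right, differed by 0.08 (FDR 0.804). PXK, at 0.43 (FDR 0.101, and 0.00756 with the block), was named after its values were seen.

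The genes with the pattern most like that of ABHD6 were found by Pearson's r of log2 CPM over the 6 cultures, among 14190 genes with a mean log2 CPM of at least 1. They were EDN1, which encodes endothelin, MKL1, a cofactor of serum response factor, WBP1L, the claudin CLDN4 and UBAP1, with r between 0.9970 and 0.9977. All points share the contrast that sets the 2 groups apart. Around their group means, r with ABHD6 was 0.964 for EDN1, 0.932 for MKL1, 0.957 for WBP1L, 0.637 for CLDN4 and 0.602 for UBAP1. The 5 genes were picked by r over these same 6 cultures, so these values depend on that choice and carry no test. The differences of these 5 genes ranged in size from 0.23 for UBAP1, at an FDR of 0.0964, to 2.52 for EDN1, which had 4.27, 2.90 and 3.04 CPM with vehicle and 19.3, 21.9 and 17.4 CPM with TGFβ.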

How the data were processed

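RNA from 6 HepG2 cultures was sequenced, 3 with TGFβ at 5 ng/mL and 3 with vehicle, each for 3 h. Groups, replicate numbers and lanes were taken from the labels. Per the labels the reads were aligned to hg19, and the processing notes of the submitters list bcl2fastq, TopHat2 2.0.6 and HTSeq, while the methods of the study name the MAPRseq workflow. The authors deposited for each culture the raw count per gene, without normalization, and the RPKM. The counts were used for tests and the deposited RPKM for levels per length. Sources used here name neither the strand setting, nor how reads on overlapping genes were treated, nor which annotation release was counted.

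In R 4.3.3, edgeR 4.0.16 compared the groups by its robust quasi-likelihood test, after filterByExpr and TMM, and p-values were adjusted by Benjamini-Hochberg across 22747 genes, with a threshold of 0.05 on the FDR. Depth was 60815385 to 100099136 counted reads per culture, and intervals for a count of 0 use 3 counts and cover counting error only. Steps were tested on simulated data. The simulated cultures were independent and not paired by number, so that test does not bear on the use of the block. Alternatives were scaling by total counts or by size factors from DESeq2, leaving the filter out or asking for 10 counts in each library, testing with DESeq2 1.42.0 or limma-voom (limma 3.58.1), a replicate block, leaving out each culture, and CPM per kilobase in place of RPKM.

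The replicate numbers were checked for pairing from the correlation, across genes, of deviations from the group means. It was 0.366, 0.227 and 0.316 for cultures with the same number and at most 0.01 otherwise, so the numbers pair the cultures. The printed values, with their SE, intervals and p-values, come from the fit without the block unless the block is named. Blocked values are given where they change a call, and for ABHD12, DAGLA and PNPLA2.

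The members and lists were chosen with earlier results of these data known. Named genes were the 9 members, up to 4 higher and 4 lower genes per list at the FDR threshold, genes overlapping a member, the genes beside ABHD6, the 5 genes most like it, and the label checks. CES1, receptors and enzymes at 0 reads, genes called only with the block, and PXK were added after their values were seen. Upstream windows of 250 bases were read from GRCh37. Some items that were examined are not reported here.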

Additional observations from a re-analysis of the deposited data

How the results depend on the processing

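The call of ABHD6 held in 13 of 13 alternatives, with differences from 1.45 to 1.56 on the log2 scale, and the other tested members were called in none. ABHD6 was selected on this difference, and the alternatives reuse the same cultures. Its calls therefore describe the fits and carry no test. Leaving out a culture turned the sign of 3 members. DAGLB then ranged from -0.108 to 0.023 and was above 0 without vehicle replicate 2 or TGFβ replicate 3. FAAH ranged from -0.176 to 0.111 and was above 0 without vehicle replicate 1 or TGFβ replicate 3. NAPEPLD ranged from -0.102 to 0.102 and was above 0 without vehicle replicate 2 or TGFβ replicate 3. MGLL could not be fitted with at least 10 counts in every library, and DESeq2 gave it no FDR. Without vehicle replicate 2, 3 members instead of 4 stood above ABHD6 in vehicle RPKM.

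The replicate block moved counts in all 5 lists. Endocannabinoid partners went from 0 to 3 higher and from 0 to 2 lower with the block, 1 higher with no filter or DESeq2, 1 lower with no filter, and 0 to 1 higher when a culture was left out. Lipolysis genes went from 0 to 2 lower with the block. Glycerolipid synthesis went from 1 to 5 higher and from 1 to 3 lower with the block, 2 higher with at least 10 counts in every library, 3 higher with DESeq2, and 0 to 2 higher and 0 to 1 lower when a culture was left out. Phospholipase C and diacylglycerol kinases went from 0 to 2 higher and 1 lower with the block, and 1 lower with no filter or DESeq2. Other ABHD genes went from 1 to 3 higher with the block and 0 to 1 when a culture was left out. The cause of these moves was not tested. The block changed no member's call. Depth limits MGLL and LIPE, which had under 20 reads in every culture.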
